A study of Homo sapiens with 28 samples.

Results

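The genes described here encode the general machinery of nuclear transcription: subunits of RNA polymerases I, II and III, the Mediator complex, the general transcription factors and the TAF proteins. They were chosen by gene symbol alone, as every entry of the deposited table that begins with POLR1, POLR2 or POLR3, MED and a digit, GTF2, GTF3, or TAF and a digit. The rule found 82 of the 7485 genes in the table. It uses no measured value, though it was set with earlier results of these data known. The samples came from Jurkat, a leukaemia line of human T cells, grown in RPMI1640 medium. Activation was by PMA, a phorbol ester, at 0.5 µg/ml together with PHA, a lectin, at 2 µg/ml, and cells were taken before activation and 1, 2, 3 and 4 h after it. Each sample gave total RNA or newly made RNA, which the cells had marked with 4-thiouridine (4sU) and which was pulled down through biotin. There were 14 samples of each kind of RNA: 3 in each of the groups before activation and at 2, 3 and 4 h, and 2 at 1 h. All cells were of 1 line, and for how long they were labelled is not stated by any source used here.

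Each of the 3 nuclear polymerases transcribes its own class of gene. Polymerase I makes the large ribosomal RNA precursor, polymerase II makes messenger RNA, and polymerase III makes transfer RNA and 5S ribosomal RNA. Polymerase II is placed at promoters by TFIID, which consists of the TATA-binding protein TBP and its TAFs, together with TFIIA, TFIIB, TFIIE, TFIIF and TFIIH. Mediator carries signals from DNA-bound activators to polymerase II, and its detachable kinase module, built on MED12 and MED13, modulates that contact. Resting T cells that are activated enlarge and raise their synthesis of ribosomes and messenger RNA, which draws on all 3 systems. The samples here were of a leukaemia line, and whether its cells did so was not measured.

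The table gives, for each gene and group, the mean and SD of a normalised read value with no unit, and no value of a single sample. Values below are written as that mean ± that SD, with 3 samples a group and 2 at 1 h. They are relative to the other genes of a library, so fewer cells of a type and less RNA per cell cannot be told apart. Changes are log2 differences on the log2(value + 1) scale ± SE, fitted with limma to all genes, and a gene is said to have risen or fallen where its p-value, adjusted over all 7485 genes, was under 0.05 (a call). Because the labels describe the replicates only as biological, the p-values measure the spread between these samples. The spread between samples of the 82 members was like that of the table: their median coefficient of variation lay between 5.58% and 13.2% in total RNA, against 6.37% to 11.2% for all genes. In labelled RNA it lay between 10.4% and 17.4%, against 10.4% to 18.2%. No gene of the table had a coefficient of variation of 50% or more in any group, so less stable genes are not among those analysed here. Depth could be read back for total RNA at 1 h alone, at 1.105e+07 and 1.118e+07 reads, on the assumption that the values are CPM. Of 10 T cell markers, 6 were in the table, with summed total values of 2143 at 4 h and 1820 before activation. Myeloid AIF1 and VCAN summed to 99.3 and 113, fibroblast THY1 and VIM to 588 and 413, in the same order, and 4 T cell markers, the other 2 of each of these lists and the 3 B cell markers were not analysed here. Of the fibroblast sums, VIM alone made up 576 and 401, and THY1 11.9 and 11.5, so the sums follow VIM. All samples were of 1 cell line, and a part of other cells was not tested. Among the members of the machinery, POLR2A, the largest subunit of polymerase II, is not analysed here.

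At 4 h, 16 of the 82 genes had risen and 14 had fallen in total RNA, against 21.4% and 14.5% of all genes. The 30 calls made up 36.6% of the members, where percent called over the whole table was 36. The median log2 change was -0.06 for the members and 0.02 for all genes. The share called was thus near that of the table. Among the POLR-named subunits of polymerases I and III, 1 of 14 had risen and 5 had fallen, with a median of -0.20. Mediator showed 8 of 22 risen and 2 fallen, with a median of 0.21. The TAFs of TFIID, including TAF9, which the SAGA coactivator also contains, gave 3 risen and none fallen of 13. TAF5L and TAF6L, the 2 TAFs counted as belonging to SAGA and not to TFIID, had both fallen. These counts by complex are descriptions, and differences between the complexes were not tested. The largest rise was that of TAF8, at 85.9 ± 12.6 after 4 h and 44.04 ± 4.45 before activation, a log2 change of 0.95 ± 0.11 (adjusted p = 2.16e-06 by limma). The largest fall was that of TAF5L, at 51 ± 1.58 after 4 h and 84.7 ± 3.53 before activation, a change of -0.72 ± 0.09 (adjusted p = 1.75e-06 by limma).

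**Figure D1:**
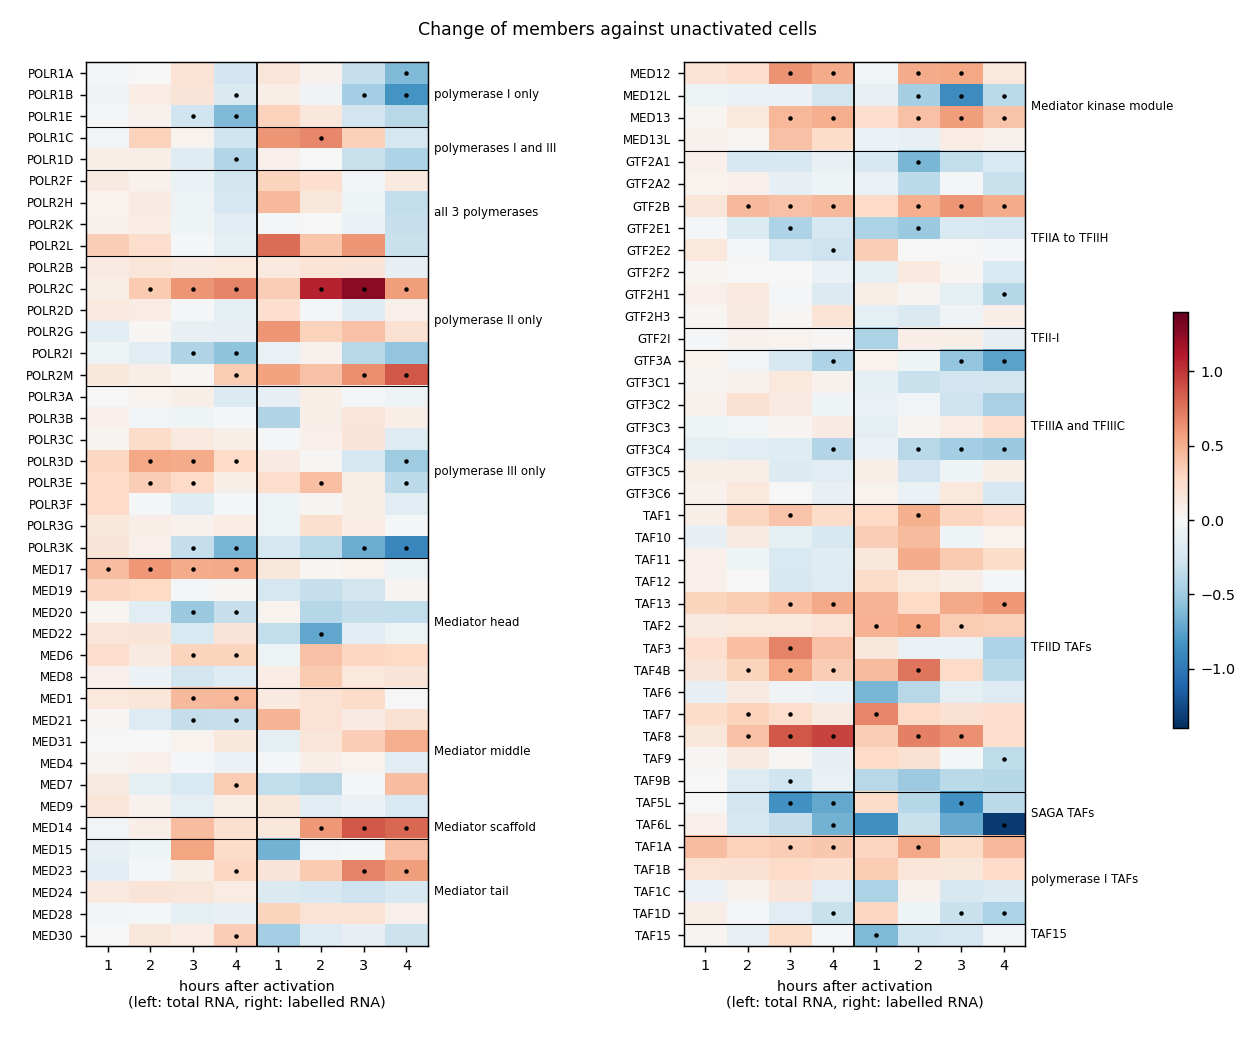
Log2 change from unactivated cells of 81 of the 82 genes, in rows grouped by complex, in total RNA and labelled RNA at 1, 2, 3 and 4 h in columns. Red is higher and blue is lower than before activation, and a dot marks a call by limma. Dots are few at 1 h (1 in total and 3 in labelled RNA) and number 29 in total and 19 in labelled RNA at 4 h.

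The response built up over the 4 h. The share of the table called in either direction was 0.935%, 13.3%, 29.8% and 36% in total RNA and 6.25%, 21.6%, 25.2% and 27.5% in labelled RNA at 1, 2, 3 and 4 h. In total RNA, 1, 8, 16 and 16 members had risen at 1, 2, 3 and 4 h, and 0, 0, 8 and 14 had fallen. The table as a whole had 0.788%, 9.71%, 18.9% and 21.4% of its genes risen and 0.147%, 3.58%, 10.9% and 14.5% fallen at those times. The first gene called in total RNA was MED17, a core subunit of the Mediator head, which read 73.9 ± 7.002, 100.3 ± 8.45, 113 ± 3.57, 106 ± 4.30 and 107 ± 2.50 at 0, 1, 2, 3 and 4 h. Its change at 1 h was 0.44 ± 0.09 (adjusted p = 0.0256 by limma), and the mean was higher than before activation at every later hour. This first call was lost when group medians were set equal, at 0.35 with an adjusted p of 0.133 by limma. Under the same centring the members had 0 calls at 1 h, 4 risen and 3 fallen at 2 h, 12 and 14 at 3 h, and 11 and 16 at 4 h, so the balance of rises and falls depends on the scaling. In newly made RNA, 2, 12, 9 and 7 members had risen and 1, 5, 8 and 13 had fallen at 1, 2, 3 and 4 h. The shares over the table were 4.2%, 12.3%, 13.8% and 13.7% risen and 2.06%, 9.26%, 11.4% and 13.8% fallen. The median change of labelled RNA at 4 h was -0.12 for the members and -0.01 for all genes. Over all hours and both kinds of RNA, 23 members rose at some hour and 25 fell, 2 of them (POLR3D and POLR3E) did both, and 36 were never called. Those that did both are 2.44% of members, near the 2.11% of the table. The share never called was 43.9% of members and 41.0% of the table. The 46 members called are 56.1%, where 59% of the table was called at some hour, 33% risen and 28.1% fallen.

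The 6 promoters below belong to the 3 strongest rises and the 3 strongest falls in total RNA at 4 h among members with an entry in RefSeq's promoter table (GRCh38.p14). They are shown because the genes that went opposite ways can then be compared letter by letter. Each line holds the 250 bases before the annotated start, 5′ to 3′ on the gene's own strand. Capitals mark letters searched on both strands: CCGGAAG as an ETS motif, CACGTG as the E-box, CCAAT as the box of that name, TGANTCA as an AP-1 motif and TATAAA as the TATA box. In MED17 an AP-1 and an ETS match stand side by side without sharing a base, and no other matches touch.
POLR2C (chr16:57462429-57462678, plus strand): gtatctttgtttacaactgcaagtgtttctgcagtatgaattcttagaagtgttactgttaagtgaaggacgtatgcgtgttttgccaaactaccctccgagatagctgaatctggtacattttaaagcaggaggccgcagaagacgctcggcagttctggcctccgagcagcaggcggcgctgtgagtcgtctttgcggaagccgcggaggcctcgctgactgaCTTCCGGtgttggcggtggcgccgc
TAF13 (chr1:109076004-109076253, minus strand): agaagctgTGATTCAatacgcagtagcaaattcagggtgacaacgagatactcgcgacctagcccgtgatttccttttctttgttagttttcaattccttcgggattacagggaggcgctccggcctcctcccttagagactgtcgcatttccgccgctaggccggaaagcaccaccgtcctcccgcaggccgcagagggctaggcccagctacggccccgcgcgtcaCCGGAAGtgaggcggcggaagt
MED17 (chr11:93784032-93784281, plus strand): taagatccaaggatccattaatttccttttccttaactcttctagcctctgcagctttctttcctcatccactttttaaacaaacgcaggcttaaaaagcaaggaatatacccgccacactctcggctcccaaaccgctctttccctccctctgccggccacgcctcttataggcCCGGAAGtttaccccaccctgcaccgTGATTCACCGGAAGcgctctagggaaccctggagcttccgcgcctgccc
TAF5L (chr1:229626123-229626372, minus strand): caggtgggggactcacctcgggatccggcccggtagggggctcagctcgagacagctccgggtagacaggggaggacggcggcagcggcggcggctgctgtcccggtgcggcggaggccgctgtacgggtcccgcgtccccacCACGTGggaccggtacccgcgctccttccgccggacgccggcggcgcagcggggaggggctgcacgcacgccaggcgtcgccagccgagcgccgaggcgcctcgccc
TAF6L (chr11:62771146-62771395, plus strand): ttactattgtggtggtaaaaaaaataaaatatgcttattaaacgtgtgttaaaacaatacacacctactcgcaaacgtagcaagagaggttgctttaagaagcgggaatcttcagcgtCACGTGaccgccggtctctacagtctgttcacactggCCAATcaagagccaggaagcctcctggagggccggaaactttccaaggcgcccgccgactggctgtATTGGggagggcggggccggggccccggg
POLR3K (chr16:53609-53858, minus strand): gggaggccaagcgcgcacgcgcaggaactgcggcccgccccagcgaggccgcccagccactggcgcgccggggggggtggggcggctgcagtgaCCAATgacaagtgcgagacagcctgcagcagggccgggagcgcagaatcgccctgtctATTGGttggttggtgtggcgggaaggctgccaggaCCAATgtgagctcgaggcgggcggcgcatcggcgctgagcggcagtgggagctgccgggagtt

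The 3 promoters of genes that rose hold ETS letters, once in POLR2C and TAF13 and at 2 places in MED17, and those of TAF13 and MED17 also hold AP-1 letters. Of the 3 promoters of genes that fell, TAF5L and TAF6L hold an E-box, TAF6L holds CCAAT at 2 places and POLR3K at 3, and none holds ETS or AP-1 letters. Over the 62 members with an entry, 33.9% held ETS letters, against 8.82% of all 27305 promoters and 19.6% of the 5843 with a gene in the deposited table. E-boxes were in 21.0% of members, against 6.49% and 9.74%. CCAAT stood in 30.6%, against 33.0% and 36.1%, AP-1 letters in 6.45%, against 6.6% and 3.29%, and TATAAA in 6.45%, against 11.1% and 4.54%. Among the 11 members with an entry that rose in total RNA at 4 h, 4 held ETS, 2 E-box, 4 CCAAT, 2 AP-1 and 3 TATAAA letters. Among the 9 that fell, the counts were 2, 3, 3, 0 and 0. A match describes the letters in this window alone.

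Most of this machinery was abundant. The authors' RPKM, a read density per length averaged over the total RNA samples, had a median of 81.1 for the members and 54.5 for all genes. POLR2B, the second-largest subunit of polymerase II, stood highest at 1783 RPKM. TAF1D, a subunit of the polymerase I selectivity factor whose gene also hosts small nucleolar RNAs, followed at 807, and GTF3A, the 5S gene factor TFIIIA, at 697. TAF3, a TFIID subunit that reads a histone methyl mark, was lowest at 5.19, below TAF1C at 7.85 and MED7 at 10.04. The RPKM column has no SD, so neighbours in this order cannot be told apart by a test.

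Before activation, the ratio of labelled to total RNA ranged widely among the members. No source used here states how the 2 kinds of RNA were scaled to each other, so a ratio ranks genes and is no share of new RNA. Across the table, labelled and total values differed for 67.5% of genes. Of the 82 members, 23 lay higher in labelled RNA and 23 lower, where 40.6% and 26.9% of the table did, with a median ratio of 0.997 beside 1.11 for all genes. All 4 measured subunits that the 3 polymerases share lay lower in labelled RNA, with ratios between 0.34 and 0.533. POLR2F was the lowest of all members, with 76.8 ± 35.8 in labelled and 226 ± 16.2 in total RNA, a log2 difference of -1.55 ± 0.22 (adjusted p = 7.41e-07 by limma) that put its ratio in the 0.7th percentile of the table. POLR2G, part of the stalk of polymerase II, read 22.5 ± 9.68 and 53.8 ± 5.998, a difference of -1.22 ± 0.21 (adjusted p = 5.16e-06 by limma). Of the 6 genes of polymerase II alone, 4 lay lower in labelled RNA and none higher.

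Mediator had 10 of 22 genes higher in labelled RNA, a share near the 40.6% of the table, and 2 lower. By complex, the highest median ratio was 1.89, in the kinase module of Mediator. It was 1.78 in the 4 TAFs of polymerase I, with 3 of them higher in labelled RNA. In the 2 TAFs of SAGA that TFIID lacks it was 1.68, with both higher. The 3 genes of polymerase I had a median of 1.49, the Mediator head 1.09 and the Mediator middle module 1.08. Single Mediator genes held the highest ratios of all members. The tail subunit MED15 had 42.5 ± 13.5 in labelled and 7.78 ± 1.26 in total RNA, a ratio of 5.46 and a difference of 2.31 ± 0.27 (adjusted p = 5.48e-09 by limma). MED9 of the middle module followed with a ratio of 3.97, MED22 of the head with 3.03, and MED13L, a kinase module paralogue of MED13, with 2.59. The kinase module had 3 of 4 genes higher in labelled RNA, and MED12 differed by 0.41 ± 0.19 (adjusted p = 0.0514 by limma). POLR1A, the largest subunit of polymerase I, also lay high, with 201 ± 14.4 in labelled and 87.9 ± 10.97 in total RNA. POLR1E, a polymerase I subunit outside the catalytic core, lay on the other side, with 97.2 ± 25.4 and 129 ± 5.57. With group medians set equal within each kind of RNA, 22 members lay higher and 29 lower. That step does not set the 2 kinds equal to each other. The median gene stood at 0.086 after it and at 0.154 as deposited.

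**Figure D2:**
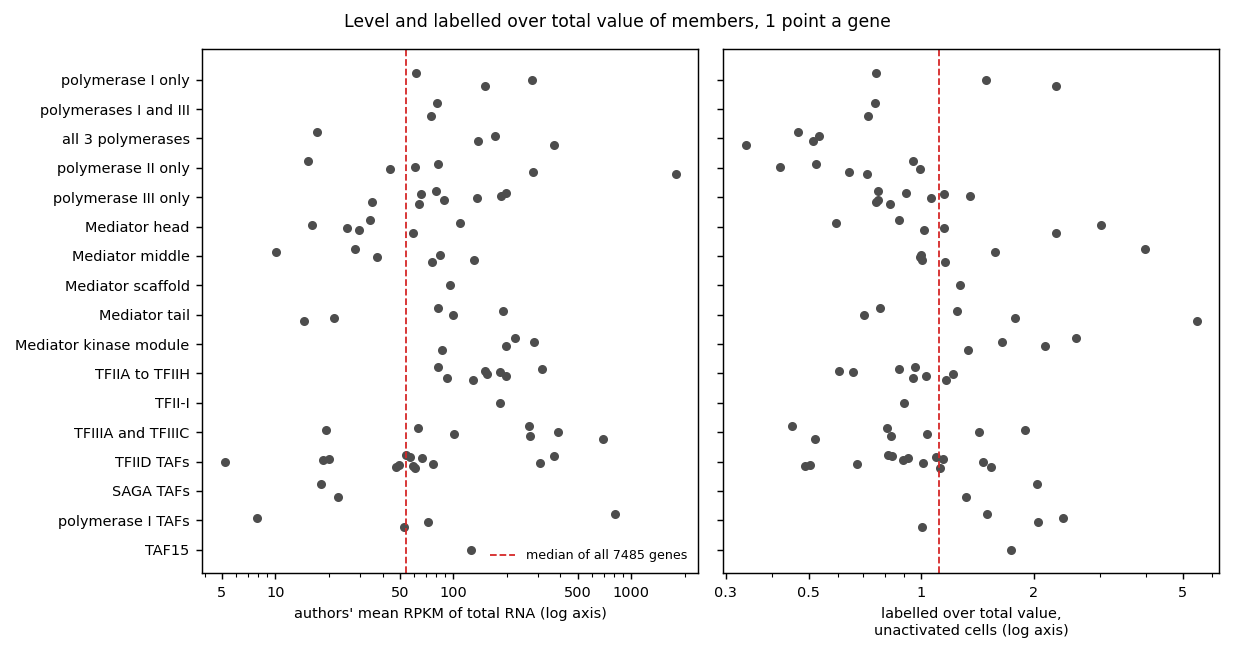
Each point is 1 gene, for 81 of the 82 members, in rows by complex: the left panel shows the authors' mean RPKM of total RNA and the right panel labelled over total value in unactivated cells, both on log axes. Dashed lines mark the median of all 7485 genes. The subunits shared by all 3 polymerases lie between 0.34 and 0.533 in the right panel, and MED15 lies farthest to the right at 5.46.

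At 4 h, 1 of the 14 POLR-named genes of polymerases I and III had risen and 5 had fallen in total RNA, against 21.4% and 14.5% of the table. At 2 h, 2 of the 14 had risen and none had fallen in each kind of RNA. The table then had 9.71% risen and 3.58% fallen in total RNA and 12.3% and 9.26% in labelled RNA. At 3 h, 2 had risen and 2 had fallen in total RNA, against 18.9% and 10.9% of the table. In labelled RNA at 3 h none had risen and 3 had fallen, against 13.8% and 11.4%. Of these 14 genes, counting POLR1C and POLR1D which both enzymes contain, none had risen and 6 had fallen in labelled RNA at 4 h. The table had 13.7% risen and 13.8% fallen there, and the median log2 change was -0.38 for the 14 and -0.01 for the table. The catalytic subunit gene POLR1A had labelled values of 201 ± 14.4, 226 ± 9.85, 209.9 ± 13.2, 160.5 ± 34.1 and 131 ± 21.6 at 0 to 4 h, and its change at 4 h was -0.62 ± 0.14 (adjusted p = 0.00105 by limma). Its total RNA read 87.9 ± 10.97, 86.95 ± 1.79, 87.5 ± 9.40, 102 ± 37.8 and 72.96 ± 4.05 and did not pass at 4 h, with -0.27 ± 0.18 (adjusted p = 0.286 by limma), though it did when the fit held only these 2 groups, at an adjusted p of 0.022 by limma. POLR1B, the second-largest subunit, had labelled values of 279 ± 48.7, 297 ± 36.1, 269.7 ± 21.3, 200.3 ± 6.24 and 155 ± 10.7, with no overlap of mean ± SD between 4 h and unactivated cells. The labelled change was -0.84 ± 0.13 (adjusted p = 2.27e-06 by limma), beside -0.20 ± 0.07 (adjusted p = 0.0399 by limma) in total RNA. The total call of POLR1B was lost with only the 2 groups in the fit (adjusted p = 0.0505 by limma). The third polymerase I gene, POLR1E, fell in total RNA, which read 129 ± 5.57, 126 ± 1.07, 134 ± 3.72, 106 ± 12.9 and 83.7 ± 1.12, with a change of -0.62 ± 0.09 (adjusted p = 1.46e-05 by limma). Its labelled RNA did not pass, at -0.38 ± 0.17 (adjusted p = 0.0932 by limma).

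Within polymerase III, POLR3K, the RNA cleavage subunit gene, fell in both kinds of RNA. POLR3K read 78.1 ± 4.49, 65.5 ± 7.98, 59.8 ± 7.82, 48.05 ± 5.97 and 40.99 ± 6.56 in labelled RNA, a change of -0.91 ± 0.19 (adjusted p = 0.000223 by limma). In total RNA the change was -0.65 ± 0.10 (adjusted p = 2.59e-05 by limma), where it read 64.5 ± 1.56 at 4 h and 102 ± 5.75 before activation.

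POLR3D and POLR3E encode partner subunits that resemble TFIIF in the polymerase II system, and both rose at 2 h in total RNA and had fallen in labelled RNA at 4 h. Total POLR3D read 129 ± 7.12, 158 ± 9.93, 189 ± 15.5, 185 ± 12.8 and 156 ± 10.4, with changes of 0.54 ± 0.09 (adjusted p = 0.000224 by limma) at 2 h and 0.27 ± 0.09 (adjusted p = 0.0219 by limma) at 4 h. Its labelled RNA read 137 ± 2.62, 148 ± 20.7, 138 ± 6.16, 115 ± 24.1 and 96.3 ± 11.1 and was below the unactivated level at 4 h, with a change of -0.50 ± 0.15 (adjusted p = 0.0114 by limma), which made it the only member called up in total and down in labelled RNA at that hour. The share of the table called in that way was not counted. POLR3E rose in total RNA at 2 h (0.34 ± 0.09, adjusted p = 0.0104 by limma) and in labelled RNA at 2 h (0.43 ± 0.14, adjusted p = 0.0205 by limma), and its labelled RNA had fallen at 4 h (-0.37 ± 0.14, adjusted p = 0.0374 by limma). The last of these calls was lost with only the compared groups in the fit (adjusted p = 0.106 by limma). The catalytic pair POLR3A and POLR3B did not pass at 4 h in total RNA (-0.20 ± 0.14 and -0.03 ± 0.09) or in labelled RNA (-0.07 ± 0.17 and 0.09 ± 0.18). POLR1C also rose in labelled RNA at 2 h, by 0.67 ± 0.21 (adjusted p = 0.0151 by limma), and its partner POLR1D fell in total RNA at 4 h, with a change of -0.41 ± 0.09 (adjusted p = 0.00108 by limma).

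**Figure D3:**
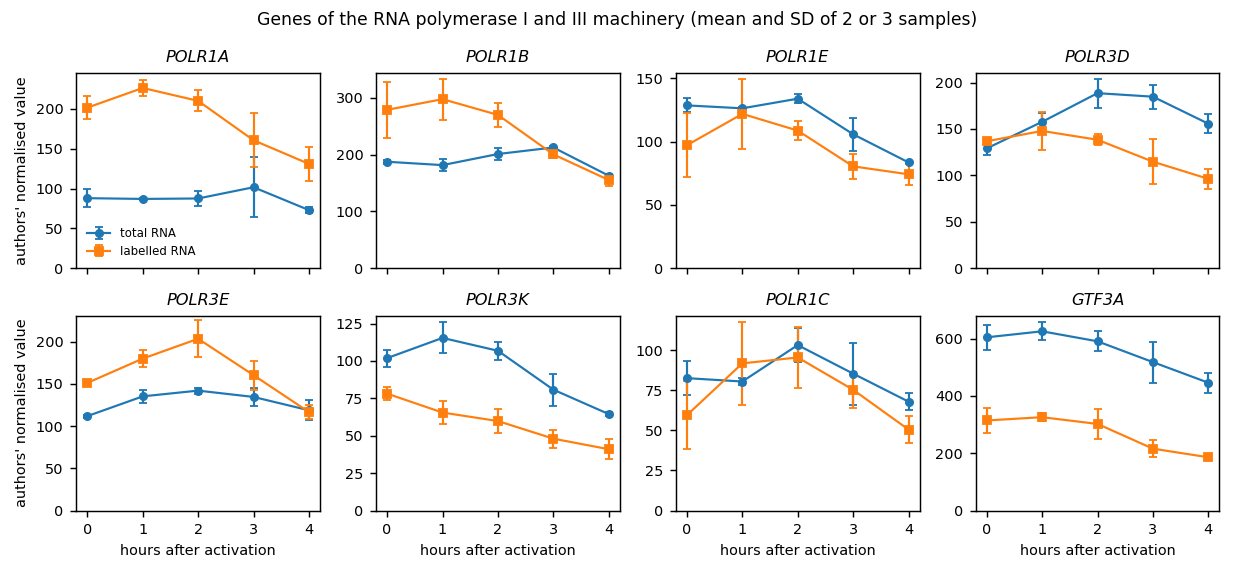
Authors' normalised value against hours after activation for 8 genes of polymerases I and III and TFIIIA, in total RNA (circles) and labelled RNA (squares), with the mean and SD of 3 samples, 2 at 1 h. Labelled POLR1A, POLR1B and GTF3A end below their unactivated values, while total POLR3D passes through a maximum at 2 h.

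Among the factors that recruit polymerase III, 2 of 7 genes fell in each kind of RNA at 4 h and none rose. The table then had 14.5% fallen and 21.4% risen in total RNA, and 13.8% and 13.7% in labelled RNA. GTF3A, the factor specific for 5S ribosomal RNA genes, fell in labelled RNA (314 ± 43.6, 326 ± 13.4, 302 ± 52.5, 216 ± 29.9 and 186 ± 10.4) with a change of -0.75 ± 0.13 (adjusted p = 2.2e-05 by limma) at 4 h, and in total RNA with a change of -0.44 ± 0.10 (adjusted p = 0.00187 by limma). Of the 6 measured TFIIIC genes, GTF3C4 alone fell, to 149 ± 24.7 in labelled RNA at 4 h against 215 ± 32.2 before activation, with a change of -0.52 ± 0.14 (adjusted p = 0.0049 by limma), and in total RNA with a change of -0.41 ± 0.12 (adjusted p = 0.0123 by limma). Of the 4 TAFs of the polymerase I selectivity factor, 1 rose, 1 fell and 2 did not pass in total RNA at 4 h. TAF1A rose by 0.38 ± 0.11 (adjusted p = 0.00973 by limma), and TAF1D fell with a change of -0.31 ± 0.09 (adjusted p = 0.0134 by limma) in total and -0.44 ± 0.10 (adjusted p = 0.00064 by limma) in labelled RNA. TAF1B stood at 0.23 ± 0.10 (adjusted p = 0.0892 by limma) and TAF1C at -0.15 ± 0.22 (adjusted p = 0.626 by limma) in total RNA. Reads from the small nucleolar RNAs inside TAF1D introns could enter its value, depending on counting settings that no source used here states.

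In polymerase II, POLR2C, which encodes an assembly subunit of the enzyme, rose in both kinds of RNA. Labelled POLR2C read 106 ± 8.92, 135 ± 0.760, 226 ± 11.6, 256 ± 6.10 and 159.8 ± 20.5 at 0 to 4 h, highest at 2 and 3 h and part of the way back at 4 h. Total POLR2C climbed at each hour, with 166 ± 6.94, 178 ± 24.97, 214 ± 11.2, 255 ± 18.7 and 269 ± 8.68, and no later group's mean ± SD overlapped the unactivated one from 2 h on. The labelled change was 1.08 ± 0.13 (adjusted p = 2.22e-08 by limma) at 2 h, 1.26 ± 0.13 (adjusted p = 2.79e-10 by limma) at 3 h and 0.59 ± 0.13 (adjusted p = 0.000847 by limma) at 4 h. The total change at 4 h was 0.69 ± 0.09 (adjusted p = 4.02e-06 by limma). POLR2M encodes a polymerase II-associated protein that makes the enzyme dependent on Mediator, and its locus also yields read-through transcripts that cannot be told apart here. It rose in labelled RNA at 4 h, to 40.9 ± 3.12 against 21.96 ± 10.1, by 0.87 ± 0.24 (adjusted p = 0.00636 by limma), and in total RNA by 0.35 ± 0.12 (adjusted p = 0.0312 by limma), a call lost with medians set equal (adjusted p = 0.0576 by limma).

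POLR2I, the small subunit used in start site selection and proofreading, was the only gene of polymerase II alone to fall in total RNA at 4 h. It read 56.5 ± 11.7, 53.98 ± 12.97, 50.8 ± 3.56, 41.9 ± 6.08 and 38.1 ± 4.07 and changed by -0.56 ± 0.15 (adjusted p = 0.00728 by limma), with -0.55 ± 0.26 (adjusted p = 0.117 by limma) in labelled RNA. POLR2B, the most abundant member per length, read 979.6 ± 89.8, 1060.0 ± 49.3, 1102 ± 50.6, 1068 ± 127 and 1086 ± 87.3 in total RNA and moved by 0.15 ± 0.10 (adjusted p = 0.262 by limma) at 4 h. The 4 subunits common to all 3 polymerases had no call in either kind of RNA at 4 h, with total changes between -0.25 and -0.13 and labelled changes between -0.34 and 0.14. Those limits hold for POLR2F, POLR2H, POLR2K and POLR2L.

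At 4 h, 8 of 22 Mediator genes had risen and 2 had fallen in total RNA, against 21.4% and 14.5% of the table. In labelled RNA 3 had risen and 1 had fallen, against 13.7% and 13.8%, so the share risen there was near that of the table. In total RNA at 4 h the 8 risen genes were MED17 and MED6 in the head, MED1 and MED7 in the middle, MED23 and MED30 in the tail, and MED12 and MED13 in the kinase module. MED17 changed by 0.53 ± 0.08 (adjusted p = 7.63e-05 by limma), while its labelled RNA read 169.5 ± 17.1, 189 ± 0.968, 171 ± 22.2, 175 ± 11.6 and 161 ± 19.1 and moved by -0.07 ± 0.14 (adjusted p = 0.722 by limma). MED1, the subunit bound by nuclear receptors, read 180.0 ± 4.57, 199.5 ± 9.90, 203 ± 15.7, 246 ± 33.4 and 248 ± 11.6 in total RNA and rose by 0.46 ± 0.09 (adjusted p = 0.000678 by limma). Its labelled RNA moved by 0.01 ± 0.13 (adjusted p = 0.967 by limma). MED13 rose in both, with total values of 216 ± 4.59, 221 ± 25.5, 239 ± 16.7, 298 ± 44.5 and 309 ± 20.98 and labelled values of 356 ± 71.9, 423 ± 29.1, 473 ± 32.2, 534 ± 6.10 and 469.6 ± 20.2. Its changes at 4 h were 0.51 ± 0.10 (adjusted p = 0.000556 by limma) in total and 0.40 ± 0.12 (adjusted p = 0.00868 by limma) in labelled RNA. MED12 changed by 0.52 ± 0.19 (adjusted p = 0.0484 by limma) in total RNA, and that call was lost with a pseudocount of 5 (adjusted p = 0.0518 by limma), with medians set equal (0.0694) and with a constant prior variance (0.054).

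MED14 and MED23 also rose in labelled RNA. MED14, the scaffold on which the modules meet, read 58.9 ± 27.6, 66.1 ± 2.74, 90.2 ± 8.29, 108 ± 20.4 and 104 ± 10.7 in labelled RNA, with the widest spread before activation. It rose by 0.87 ± 0.21 (adjusted p = 0.00155 by limma) at 3 h and 0.80 ± 0.21 (adjusted p = 0.00331 by limma) at 4 h in labelled RNA, and its total RNA at 4 h moved by 0.23 ± 0.17 (adjusted p = 0.33 by limma). MED23, a tail subunit known as a target of signalling through the factor ELK1, read 118 ± 8.78, 134 ± 21.8, 153 ± 17.4, 191 ± 23.6 and 177 ± 9.90 in labelled RNA and rose by 0.69 ± 0.14 (adjusted p = 0.000218 by limma) at 3 h and 0.58 ± 0.14 (adjusted p = 0.00172 by limma) at 4 h. In total RNA MED23 rose by 0.29 ± 0.10 (adjusted p = 0.0325 by limma), and MED7 by 0.36 ± 0.14 (adjusted p = 0.0482 by limma). Both total calls were lost with medians set equal (adjusted p = 0.0675 for MED23 and 0.0821 for MED7 by limma). MED6 and MED30 rose in total RNA by 0.31 ± 0.09 (adjusted p = 0.0103 by limma) and 0.35 ± 0.11 (adjusted p = 0.021 by limma).

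Few Mediator genes fell. MED20 of the head and MED21 of the middle module fell in total RNA at 4 h, with a change of -0.32 ± 0.12 (adjusted p = 0.0367 by limma) and -0.32 ± 0.09 (adjusted p = 0.0107 by limma). MED12L, the paralogue of MED12, fell in labelled RNA, which read 339.9 ± 28.03, 316 ± 37.7, 246 ± 23.8, 185 ± 27.4 and 262 ± 17.1. The labelled change of MED12L was -0.47 ± 0.13 (adjusted p = 0.00615 by limma) at 2 h, -0.88 ± 0.13 (adjusted p = 5.32e-07 by limma) at 3 h and -0.38 ± 0.13 (adjusted p = 0.0239 by limma) at 4 h, and its total RNA at 4 h moved by -0.26 ± 0.11 (adjusted p = 0.0815 by limma). MED22 fell in labelled RNA at 2 h alone, with a change of -0.73 ± 0.23 (adjusted p = 0.0209 by limma). In labelled RNA at 4 h as against 1 h, MED15 rose by 1.07 ± 0.28 (adjusted p = 0.00424 by limma) and MED7 by 0.78 ± 0.29 (adjusted p = 0.0459 by limma).

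**Figure D4:**
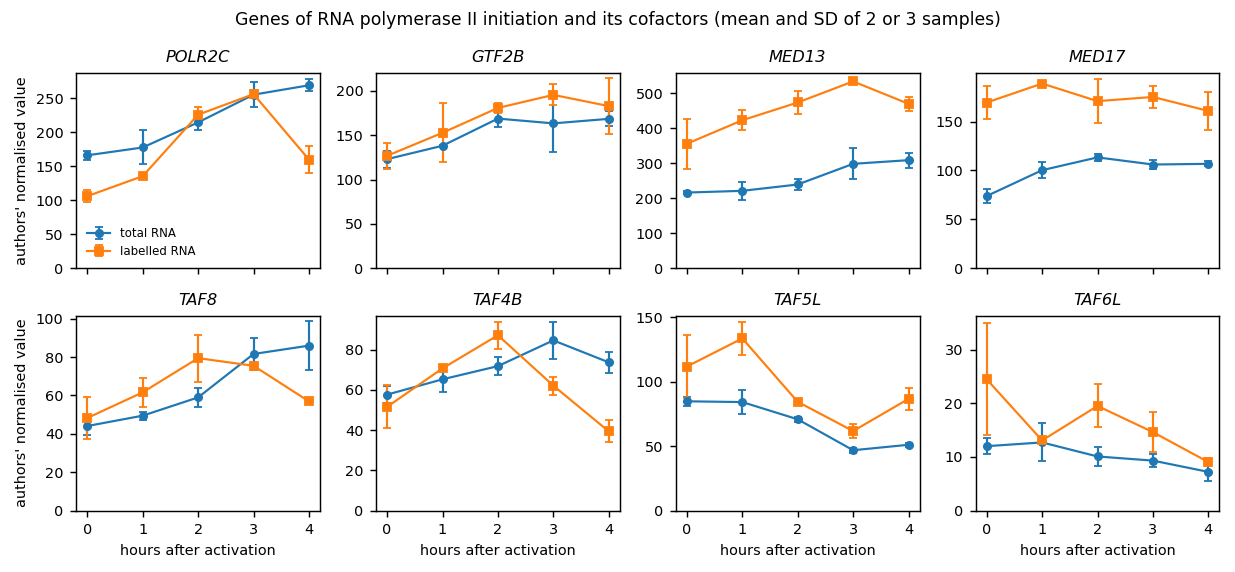
Authors' normalised value against hours after activation for 8 genes of polymerase II initiation, Mediator, TFIID and SAGA, in total RNA (circles) and labelled RNA (squares), with the mean and SD of 3 samples, 2 at 1 h. Labelled POLR2C, TAF8 and TAF4B come down from a maximum at 2 or 3 h while their total values at 4 h are still above those before activation, and TAF5L and TAF6L end lower in total RNA.

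Among the general factors of polymerase II, GTF2B, which encodes TFIIB and links TBP to the polymerase, was the only one of 8 measured TFIIA to TFIIH genes to rise at 4 h. The table had 21.4% risen in total and 13.7% in labelled RNA. GTF2B had labelled values of 127 ± 14.9, 153 ± 33.03, 181 ± 5.52, 195 ± 11.8 and 183 ± 31.9 and total values of 123 ± 9.69, 138 ± 1.17, 169 ± 9.24, 163 ± 32.5 and 168 ± 8.59. The changes at 4 h were 0.52 ± 0.14 (adjusted p = 0.00539 by limma) in labelled and 0.45 ± 0.11 (adjusted p = 0.00336 by limma) in total RNA. Both subunits of TFIIE fell. GTF2E1, the large one, fell in labelled RNA at 2 h with a change of -0.51 ± 0.19 (adjusted p = 0.041 by limma), a call lost with only the compared groups in the fit (adjusted p = 0.0767 by limma) and with a constant prior variance (0.123). In total RNA GTF2E1 fell at 3 h with a change of -0.43 ± 0.10 (adjusted p = 0.00239 by limma) and stood at -0.23 ± 0.10 (adjusted p = 0.0731 by limma) at 4 h. GTF2E2, the small one, stood at -0.25 ± 0.09 (adjusted p = 0.0541 by limma) at 3 h and fell at 4 h with a change of -0.29 ± 0.09 (adjusted p = 0.0226 by limma). A difference between the hours was not tested. GTF2A1, which encodes the precursor of the larger TFIIA subunits, fell in labelled RNA at 2 h, with a change of -0.64 ± 0.14 (adjusted p = 0.00061 by limma), and read 233 ± 40.5, 199.8 ± 22.2, 149.5 ± 19.9, 184 ± 12.6 and 201 ± 10.8 over the series. The TFIIH core subunit gene GTF2H1 fell in labelled RNA at 4 h, with a change of -0.40 ± 0.13 (adjusted p = 0.0208 by limma), a call lost with only the compared groups in the fit (adjusted p = 0.0633 by limma). GTF2I, which encodes TFII-I, changed by 0.01 ± 0.09 (adjusted p = 0.928 by limma) in total RNA, and its near-identical pseudogene copies make its value uncertain.

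Several TAFs of TFIID rose, at different hours. TAF7, which binds TAF1 and restrains its acetyltransferase activity, was among the first in labelled RNA, with 123 ± 23.96, 198 ± 1.48, 148 ± 6.79, 143 ± 19.2 and 145 ± 8.88 at 0 to 4 h. It rose by 0.69 ± 0.16 (adjusted p = 0.00513 by limma) at 1 h, and in total RNA by 0.32 ± 0.08 (adjusted p = 0.00777 by limma) at 2 h. TAF2, a subunit that contacts DNA at the start site, also rose in labelled RNA at 1 h, by 0.49 ± 0.15 (adjusted p = 0.0376 by limma), a call lost with only the compared groups in the fit (adjusted p = 0.181 by limma). TAF8, the histone-fold partner of TAF10, had labelled values of 48.2 ± 10.9, 61.6 ± 7.58, 79.4 ± 12.2, 75.4 ± 1.24 and 56.9 ± 1.49 and total values of 44.04 ± 4.45, 49.4 ± 2.12, 58.95 ± 4.91, 81.6 ± 8.48 and 85.9 ± 12.6. Labelled TAF8 rose by 0.71 ± 0.18 (adjusted p = 0.00427 by limma) at 2 h and was at 0.23 ± 0.18 (adjusted p = 0.364 by limma) by 4 h, while total TAF8 was highest at 3 and 4 h.

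TAF4B, a paralogue of TAF4 with restricted tissue use, had its labelled high at 2 h and its total high at 3 h, with labelled values of 51.6 ± 10.7, 70.7 ± 0.143, 87.1 ± 6.82, 62.1 ± 4.48 and 39.4 ± 5.40 and total values of 57.6 ± 4.32, 65.2 ± 6.53, 71.8 ± 4.38, 84.6 ± 9.15 and 73.7 ± 5.25. It rose by 0.75 ± 0.19 (adjusted p = 0.00274 by limma) in labelled RNA at 2 h and by 0.55 ± 0.10 (adjusted p = 0.000325 by limma) in total RNA at 3 h. TAF13, which pairs with TAF11, rose in both kinds of RNA at 4 h, by 0.60 ± 0.22 (adjusted p = 0.0345 by limma) in labelled and 0.53 ± 0.14 (adjusted p = 0.00703 by limma) in total RNA. The labelled call of TAF13 was lost with only the compared groups in the fit (adjusted p = 0.079 by limma). TAF1, the largest TFIID subunit, rose in total RNA at 3 h, by 0.40 ± 0.12 (adjusted p = 0.0166 by limma), and TAF3 by 0.69 ± 0.16 (adjusted p = 0.0036 by limma), and neither passed at 4 h, with 0.26 ± 0.12 (adjusted p = 0.104 by limma) for TAF1 and 0.41 ± 0.16 (adjusted p = 0.0579 by limma) for TAF3. TAF9, part of both TFIID and SAGA and sharing exons with AK6, fell in labelled RNA at 4 h with a change of -0.35 ± 0.13 (adjusted p = 0.0332 by limma).

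TAF5L and TAF6L take the places of TAF5 and TAF6 in SAGA, a coactivator that acetylates histones, and both fell. Total TAF5L read 84.7 ± 3.53, 84.1 ± 9.43, 70.8 ± 2.10, 46.8 ± 1.80 and 51 ± 1.58, with its low at 3 h, where it changed by -0.84 ± 0.09 (adjusted p = 2.97e-07 by limma). Labelled TAF5L had its low at the same hour, 112 ± 24.4, 134 ± 12.7, 84.3 ± 0.313, 61.6 ± 5.59 and 86.6 ± 8.36, and changed by -0.85 ± 0.16 (adjusted p = 9.28e-05 by limma) there and with a change of -0.36 ± 0.16 (adjusted p = 0.0931 by limma) at 4 h. TAF6L was scarce, with total values of 12 ± 1.47, 12.7 ± 3.54, 10.1 ± 1.81, 9.31 ± 1.25 and 7.21 ± 1.75 and labelled values of 24.5 ± 10.4, 13.1 ± 0.0354, 19.5 ± 4.01, 14.6 ± 3.69 and 9.04 ± 0.668, and its SD before activation was large. It changed by -1.34 ± 0.28 (adjusted p = 0.000289 by limma) in labelled and -0.66 ± 0.18 (adjusted p = 0.00785 by limma) in total RNA at 4 h. TAF15, an RNA-binding protein, dipped in labelled RNA at 1 h alone, with 165 ± 9.08, 107 ± 4.92, 137 ± 11.1, 140.3 ± 8.84 and 161 ± 13.2 over the series. The dip of TAF15 was -0.62 ± 0.16 (adjusted p = 0.00847 by limma), and with only the compared groups in the fit its adjusted p was 0.112 by limma.

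Set side by side at 4 h, the 2 kinds of RNA gave 6 genes that rose in both: GTF2B, MED13, MED23, POLR2C, POLR2M and TAF13. They gave 7 that fell in both, among them GTF3A, GTF3C4, POLR1B, POLR3K, TAF1D and TAF6L. The 6 are 37.5% of the 16 risen in total RNA and 85.7% of the 7 risen in labelled RNA, and the 7 are 50% of the 14 fallen in total RNA and 53.8% of the 13 fallen in labelled RNA. Over all genes the same overlaps were 47.9% and 74.7% for rises and 49.1% and 51.8% for falls.

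**Figure D5:**
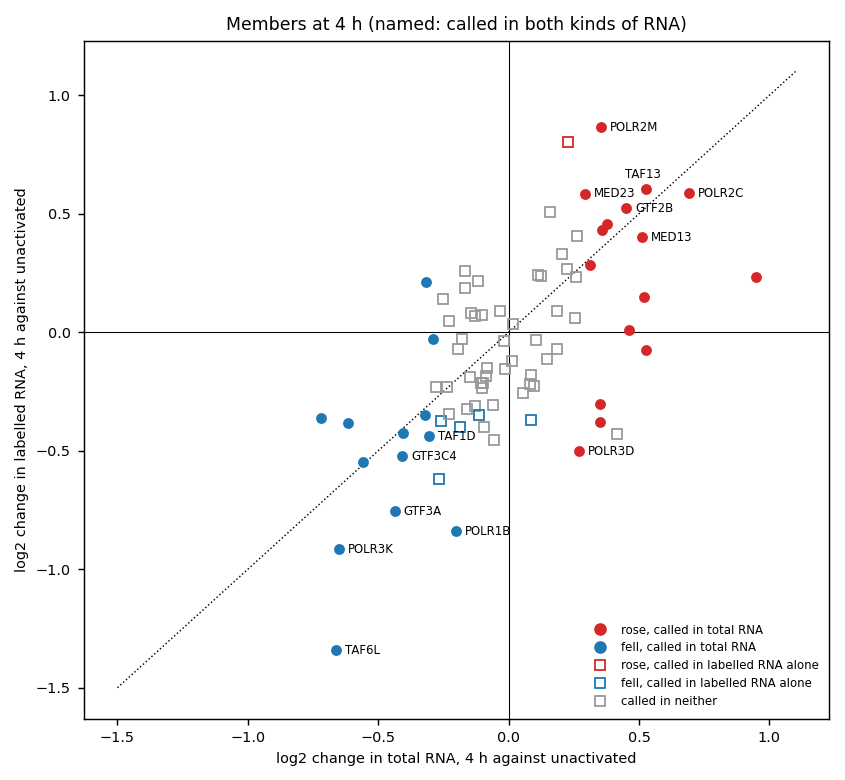
Log2 change of labelled RNA (vertical axis) against that of total RNA (horizontal axis) at 4 h relative to unactivated cells, 1 point a gene, for 81 of the 82 members. The dotted line marks equal changes. Genes named are called in both kinds of RNA, and POLR3D stands alone where total RNA rose and labelled RNA fell.

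Whether new RNA moved unlike total RNA was tested as the change of the labelled-to-total difference. None of the 82 members passed in limma at 1 h (9 at an unadjusted p under 0.05), 2 at 2 h, 4 at 3 h and 4 at 4 h, where the table had 0.321%, 2.66%, 2.58% and 2.91% of genes called. By direction, the table had 0.24%, 1.1%, 0.815% and 0.681% of genes with labelled RNA ahead and 0.0802%, 1.56%, 1.76% and 2.23% with labelled RNA behind. As the values were deposited, POLR2C was the only member called with labelled RNA ahead of total RNA, with a difference in change of 0.72 ± 0.15 (adjusted p = 0.00309 by limma) at 2 h and 0.65 ± 0.15 (adjusted p = 0.00992 by limma) at 3 h. With medians set equal, 2 members were so called at 3 h. Labelled RNA of MED17 was behind, with -0.60 ± 0.16 (adjusted p = 0.0326 by limma) at 2 h and -0.60 ± 0.16 (adjusted p = 0.0318 by limma) at 4 h. That of POLR3D was behind with -0.76 ± 0.17 (adjusted p = 0.00913 by limma) at 3 h and -0.77 ± 0.17 (adjusted p = 0.00918 by limma) at 4 h. At 4 h POLR1B had -0.64 ± 0.15 (adjusted p = 0.0141 by limma) and TAF4B -0.73 ± 0.20 (adjusted p = 0.0337 by limma), and MED12L had -0.79 ± 0.17 (adjusted p = 0.00685 by limma) at 3 h. With only the compared groups in the fit, 1, 0 and 1 of these calls were left at 2, 3 and 4 h. The median gene of this comparison stood at 0.08 with medians set equal and -0.03 as deposited at 1 h, and at 0.05 and -0.06 at 2 h. With medians set equal the calls of MED17 at 2 h (adjusted p = 0.0889 by limma) and at 4 h (0.0606) and of TAF4B at 4 h (0.0596) were lost.

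The last hour was also set against the first. At 4 h as against 1 h, 4 members had risen and 18 had fallen in labelled RNA, where 9.39% and 13.3% of the table had. Of the 24 polymerase subunits 10 had fallen and none had risen, and of the 22 Mediator genes 3 had risen and none had fallen. POLR1A fell with a change of -0.78 ± 0.16 (adjusted p = 0.000314 by limma), POLR1B with a change of -0.93 ± 0.15 (adjusted p = 4.57e-06 by limma) and POLR1E with a change of -0.71 ± 0.19 (adjusted p = 0.00612 by limma). All 3 members of polymerase I alone thus moved one way. POLR1C, which had been high at 2 h, fell with a change of -0.85 ± 0.23 (adjusted p = 0.00579 by limma), and POLR2L, shared by all 3 enzymes, with a change of -1.09 ± 0.38 (adjusted p = 0.0337 by limma), with a constant prior variance giving an adjusted p of 0.0646 by limma. In total RNA over the same interval 6 members (7.32%) had risen and 12 (14.6%) had fallen, against 12.5% and 13.7% of the table (26.1% in either direction), led by TAF8 at 0.79 ± 0.13 (adjusted p = 0.000125 by limma) and POLR3K at -0.83 ± 0.11 (adjusted p = 8.82e-06 by limma).

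The partners of this machinery that carry other symbols were read from a list of 78 symbols, of which 62 were in the table. At 4 h 17 had risen and 8 had fallen in total RNA, and 7 had risen and 7 had fallen in labelled RNA. These are 27.4% and 12.9% of the list in total RNA, against 21.4% and 14.5% of the table, and 11.3% in each direction in labelled RNA, against 13.7% and 13.8%, so they lie near the table. CDK9, the kinase that releases paused polymerase II, stood at 55.7 ± 4.76 in total RNA at 4 h and 27.2 ± 1.34 before activation, a change of 1.01 ± 0.11 (adjusted p = 3.62e-07 by limma). Its cyclin CCNT1 rose by 0.65 ± 0.10 (adjusted p = 4.33e-05 by limma) in total RNA and was already up in labelled RNA at 1 h, by 0.69 ± 0.12 (adjusted p = 7.69e-05 by limma), one of 5 listed genes risen there. HEXIM1, which holds that kinase inactive, rose in total RNA by 0.60 ± 0.12 (adjusted p = 0.000488 by limma), and AFF4, a scaffold of the super elongation complex, by 0.63 ± 0.11 (adjusted p = 0.000245 by limma). Its paralogue AFF1 fell, with -0.76 ± 0.20 (adjusted p = 0.0071 by limma) in total and -0.37 ± 0.13 (adjusted p = 0.0353 by limma) in labelled RNA, and MLLT3, another component of that complex, fell in total RNA with -0.70 ± 0.09 (adjusted p = 7.97e-06 by limma). Of the 28 measured pausing and elongation genes, 9 had risen and 2 had fallen in total RNA at 4 h, and 3 had risen and 5 had fallen in labelled RNA. CDK7, the kinase of TFIIH, rose in total RNA by 0.87 ± 0.11 (adjusted p = 4.79e-06 by limma). In labelled RNA at 4 h CCNT1 (0.29 ± 0.11, adjusted p = 0.0388 by limma) and AFF4 (0.41 ± 0.13, 0.0195) had risen. CDK9 (0.38 ± 0.15, adjusted p = 0.058 by limma), HEXIM1 (0.40 ± 0.22, 0.181) and CDK7 (0.44 ± 0.20, 0.103) did not pass there. Of the kinases and cyclin of the Mediator kinase module, CDK19 rose in total RNA by 0.45 ± 0.15 (adjusted p = 0.0248 by limma) and CCNC by 0.25 ± 0.09 (adjusted p = 0.0389 by limma). CDK8 did not pass, with 0.12 ± 0.09 (adjusted p = 0.299 by limma) in total and 0.16 ± 0.17 (adjusted p = 0.514 by limma) in labelled RNA. TBP moved by -0.03 ± 0.18 (adjusted p = 0.913 by limma) in total RNA.

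Of the 5 polymerase I partners on the list, 2 had fallen and 1 had risen in total RNA at 4 h, against 14.5% and 21.4% of the table. CD3EAP, the dimer partner of POLR1E, was at 32.8 ± 2.90 in total RNA at 4 h and 79.9 ± 4.43 before activation, a change of -1.26 ± 0.10 (adjusted p = 6.01e-09 by limma), and in labelled RNA it changed by -1.28 ± 0.22 (adjusted p = 1.74e-05 by limma). The gene overlaps ERCC1 on the opposite strand, and no source used here states whether strand was used in counting. UBTF, which opens ribosomal DNA for polymerase I, fell with a change of -0.32 ± 0.08 (adjusted p = 0.00439 by limma) in total and -0.70 ± 0.16 (adjusted p = 0.000597 by limma) in labelled RNA. RRN3, which brings polymerase I to its promoter, rose in total RNA by 0.26 ± 0.09 (adjusted p = 0.0327 by limma). TWISTNB did not pass at 4 h, with 0.05 ± 0.10 (adjusted p = 0.734 by limma) in total and -0.18 ± 0.12 (0.264) in labelled RNA. Nor did ZNRD1, with -0.23 ± 0.13 (adjusted p = 0.161 by limma) in total and -0.03 ± 0.23 (0.946) in labelled RNA. Of the polymerase III partners, 2 of 8 had fallen and none had risen in total RNA at 4 h, and none was called in labelled RNA at that hour. The table had 13.8% fallen and 13.7% risen in labelled RNA at 4 h. At 2 h it had 9.71% risen and 3.58% fallen in total RNA. CRCP then stood at -0.11 ± 0.10 (adjusted p = 0.417 by limma) in total and -0.12 ± 0.19 (0.669) in labelled RNA. At 2 h, 3 of the 8 had risen in total RNA and none had fallen: CRCP, a polymerase III subunit, by 0.38 ± 0.10 (adjusted p = 0.0116 by limma), SNAPC1, part of the snRNA activating complex, by 0.41 ± 0.13 (adjusted p = 0.0374 by limma), and MAF1, a repressor of polymerase III, by 0.40 ± 0.12 (adjusted p = 0.0369 by limma). In labelled RNA 1 had risen at 1 h, SNAPC5, by 0.76 ± 0.23 (adjusted p = 0.0325 by limma), and 1 at 2 h, MAF1, by 0.65 ± 0.24 (adjusted p = 0.0461 by limma). The table had 4.2% and 12.3% risen at those hours.

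The authors' deposited table also holds a decay rate for each gene and hour, on a natural log scale, in which a more negative value means faster loss. At every hour each listed rate could be rebuilt to within 0.01 from the same group means, as the natural log of total RNA less 0.266 times labelled RNA, divided by the preceding hour's total RNA, or before activation by the same group's own, so the rates are no separate measurement. Before activation the authors' deposited table gives members a median rate of -0.307, beside -0.344 for all genes with a rate. POLR2F and POLR2G had the slowest deposited rates before activation in the authors' deposited table, -0.0950 ± 0.0469 and -0.118 ± 0.0556, and MED22 the fastest of the 80 members with a rate, -1.64 ± 1.79. The table lists no unactivated rate for MED15 and MED9, the pair with the highest ratios of labelled to total RNA, for which 0.266 times labelled RNA exceeds total RNA. MED17 had a deposited rate of -0.506 ± 0.0974 at 4 h and -0.943 ± 0.217 before activation, with a T score of 3.18 for the change in the authors' deposited table. In that order, the authors' deposited table gives POLR1E -0.505 ± 0.128 and -0.224 ± 0.0667, with a T score of -3.36. POLR3D had T scores of 4.03 at 1 h and 4.14 at 2 h in the authors' deposited table, the direction of slower loss, and TAF5L had -4.93 at 3 h, the direction of faster loss.

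Binding by HuR, an RNA-binding protein that the series was built around, is given per gene in the authors' deposited table. There, 8 of the 82 members (9.76%) were targets by iCLIP, a crosslinking method, against 19.4% of all genes: GTF2E1, GTF3C1, GTF3C2, MED13, MED13L, POLR1E, POLR2D and TAF7. A separate summary call of HuR association in the authors' deposited table was positive for 4 of the 63 members that had it (6.35%), against 11.6% of all genes, namely GTF2H3, MED28, TAF12 and TAF3. No member was positive by both of these columns of the authors' deposited table. The summary call was empty there for the iCLIP targets MED13 and MED13L, and the overlap over all genes was not counted. The remaining column of the authors' deposited table, headed as ELAVL1 (HuR) targets by untranslated region, marked 58.0% of members and 61% of all genes. No source used here states how these calls were made.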

How the data were processed

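RNA-seq of Jurkat cells was read from 1 deposited table of 7485 genes. Per the submitters' processing notes, TopHat2, HTSeq and edgeR were used with hg19. Versions are not stated there. Libraries were made with ScriptSeq after depletion of ribosomal RNA, per the labels' protocols. Per the file headers, the authors deposited a normalised signal as mean and SD for each of 10 groups, a mean RPKM of total RNA, decay rates on a natural log scale with SDs, and score columns (T scores and LOD scores of HuR binding). Samples were grouped by the labels. The members and gene lists were chosen with earlier results of these data known.

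The design foresaw a fit from group summaries where no values of single samples were given. Group means and SDs were therefore passed to limma 3.58.1 (R 4.3.3), with a pseudocount of 1, log2 means, SDs carried to that scale to first order, a mean-dependent prior variance, the robust option and Benjamini-Hochberg adjustment over all genes at 0.05. Spread was pooled over the 5 groups of 1 kind of RNA (9 residual degrees of freedom) or over all 10 (18). Labelled and total RNA of 1 culture were treated as independent. No filter on low values was applied: all 82 members passed. The depth of the libraries is unknown and limits precision by an amount that cannot be given. Fitting was tested on simulated data. In total RNA at 4 h and labelled RNA at 1 and 4 h up to 15 called members in each direction could be named, elsewhere 5, and 11 core genes always: further genes in the text were named after their values were seen. Promoter letters came from RefSeq (GRCh38.p14), which held 62 of the 82 members. Alternatives were a pseudocount of 5, genes with a mean of at least 10, equal group medians, a fit to the compared groups only and a constant prior variance. The values of 1 member are not reported here, though counts and medians include it.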

Additional observations from a re-analysis of the deposited data

Results flagged for a closer look

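The change of labelled RNA from unactivated cells differed from that of total RNA for 10 values of 6 genes, each by the interaction term of limma (adjusted p under 0.05 over all genes). For POLR2C the difference was positive, at 0.72 at 2 h and 0.65 at 3 h: its labelled RNA changed by 1.08 ± 0.13 and 1.26 ± 0.13, its total RNA by 0.37 ± 0.09 and 0.62 ± 0.09. For MED17 it was -0.60 at 2 h and -0.60 at 4 h, with labelled changes of 0.01 ± 0.14 and -0.07 ± 0.14 and total changes of 0.61 ± 0.08 and 0.53 ± 0.08. POLR3D had -0.76 at 3 h and -0.77 at 4 h, with labelled changes of -0.25 ± 0.15 and -0.50 ± 0.15 and total changes of 0.51 ± 0.09 and 0.27 ± 0.09. POLR1B had -0.65 at 3 h and -0.64 at 4 h, with labelled changes of -0.47 ± 0.13 and -0.84 ± 0.13 and total changes of 0.18 ± 0.07 and -0.20 ± 0.07. MED12L had -0.79 at 3 h, from -0.88 ± 0.13 in labelled and -0.08 ± 0.11 in total RNA, and TAF4B had -0.73 at 4 h, from -0.38 ± 0.19 and 0.35 ± 0.10. With groups of 2 or 3 samples, no sample was examined for standing apart from its group.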

How the results depend on the processing

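No value of a named member that was called in the main fit or in an alternative changed direction under the 5 alternatives. Of 1305 alternative values, 1240 kept their side of the threshold, 59 lost a call and 6 gained one. They belong to 261 named values, of which 127 were named for a call. The rest are of genes always named, and only some of those were called. Values without a call could not lose one, so the 1240 overstate how stable the calls were. For values called in neither fit the direction was not compared. Calls were lost 28 times with only the compared groups in the fit, 20 times with a constant prior variance, 10 times with equal medians and 1 time with a pseudocount of 5. The number of members called in total RNA at 1 h was 1, and it was 0 with equal medians, 2 with only the compared groups and 0 with a constant prior variance. With only the compared groups in the fit, the number called was 16 in place of 8 in total RNA at 2 h, 11 in place of 24 at 3 h, 1 in place of 3 in labelled RNA at 1 h and 9 in place of 17 at 2 h. A constant prior variance gave 10 in labelled RNA at 2 h. For the labelled-to-total change, equal medians gave 1 call in place of 2 at 2 h and 2 in place of 4 at 4 h, and only the compared groups gave 1 at 2 h, 0 in place of 4 at 3 h (15 members at an unadjusted p under 0.05 in the fit to all groups) and 1 at 4 h. With a constant prior variance the adjusted p by limma was 0.059 for MED13, 0.0744 for MED12L and 0.0869 for TAF9 in labelled RNA at 4 h, and 0.0655 for POLR1C in labelled RNA at 2 h. With only the compared groups it was 0.079 for TAF9 in labelled RNA at 4 h, 0.0578 for MED22 in labelled RNA at 2 h, and 0.0837 for TAF1 in total RNA at 3 h. The causes were not tested. No paired analysis was possible because the table gives group means and SDs and no value of a single sample, and leaving out each replicate was not run for the same reason.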
